A study of Mus musculus with 6 samples.

Results

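Catenins are the cytoplasmic partners of cadherins, and 7 genes of this family were followed in mouse embryonic stem cells labelled as knockouts of Cdh1, the gene of E-cadherin. The genes were chosen by symbol, with earlier results of these data known. They are Ctnnb1 (beta-catenin), Jup (plakoglobin, also called gamma-catenin), Ctnna1 (alpha-catenin), Ctnnal1 (alpha-catulin), Ctnnd1 (p120-catenin), Ctnnd2 (delta-catenin) and Ctnnbip1 (ICAT, a small inhibitor of beta-catenin). All 7 symbols matched 1 row each among the 55401 genes of the deposited table, and all 7 had enough counts to be among the 17325 genes tested. RNA was sequenced from V6.5 embryonic stem cells of genotype WT and from V6.5 cells of genotype Cdh1-/-, called the knockout here after its label. Each genotype had 3 libraries, labelled A, B and C. The labels name no treatment, do not say whether the knockout cells come from 1 clone, and do not say whether the letters mark separate cultures, so p-values measure the spread between these libraries, which may be technical.

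In a cell junction the tail of a classical cadherin binds beta-catenin or plakoglobin, which bind alpha-catenin, which in turn binds actin. p120-catenin binds the same tail closer to the membrane and slows the uptake of cadherin into the cell. Beta-catenin outside the junction is marked for destruction by a complex of Axin, APC and kinases, and beta-catenin that escapes it enters the nucleus and binds TCF and LEF factors. In embryonic stem cells this nuclear role bears on self-renewal, and E-cadherin is the main classical cadherin at the cell surface.

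Libraries held between 18020719 and 23381942 counts. Embryonic stem cell markers were present in every library, and Pou5f1 stood at 459 ± 37.0 CPM (counts scaled to library depth with TMM factors, mean ± SD, n = 3) in WT against 506 ± 58.1 CPM in the libraries labelled Cdh1-/-. Sox2 was at 98.3% and Esrrb at 107% of WT. Of the 7 markers of this list 6 were not called, and Tdgf1 was called higher at 155% of WT (adjusted p 0.000175, edgeR). The knockout libraries kept 30.9% of the WT level of Cdh1, with 537 to 571 CPM in WT and 166 to 183 CPM in the knockout, so a Cdh1 transcript was still counted. The labels do not say which part of the gene was targeted, so this neither checks nor contradicts the loss of the protein. Some marker genes of other cell types differed, where 7.6% of all tested genes were called higher and 5.71% lower. Of 8 epithelial markers 1 was called lower (Grhl2) and 7 were not called. All 6 endoderm markers rose, and their summed level was 27.9 to 45.8 CPM in WT and 74.2 to 145 CPM in the knockout. Among them, Foxa2 had 6, 6 and 4 counts in WT, levels read here as not distinct from 0, and 20, 12 and 32 in the knockout. It had enough counts for the test in the knockout only, so its call adds little to those of the other markers. For Dab2 the groups overlapped, with 19.7 CPM in knockout replicate A and 22.0 CPM in WT replicate B. Of 7 tested neural markers 3 fell (Pax6, Nes and Map2) and 4 were not called, Sox1 at 134% and Ncam1 at 120% of WT among them (summed level 177 to 220 CPM against 137 to 172 CPM), and of 7 tested fibroblast markers 3 fell, Fn1 among them. The defining fibroblast markers Dcn, Lum and Postn had at most 18 counts in any library and were at 0 in 2 of the 6, WT replicate B and knockout replicate B. The part of these cell types in the catenin values was not tested. In bulk RNA, fewer cells of a type and less RNA per cell cannot be told apart.

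Of the 7 catenin transcripts, 1 rose and 1 fell in the knockout, and 5 did not pass the test. Ctnna1 rose to 126% of its WT level and Ctnnal1 fell to 55.0%. Calls rest on edgeR's quasi-likelihood test, with p-values adjusted over all tested genes by Benjamini-Hochberg and a threshold of 0.05, and 13.3% of all tested genes were called (7.6% higher and 5.71% lower). The groups did not overlap for 3 catenins, Ctnna1, Ctnnal1 and Ctnnd2, against 30.7% of all tested genes. With 7 members these counts do not set the family apart from other genes. The median log2 fold change was 0.06 for the catenins and -0.01 for all tested genes.

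**Figure D1:**
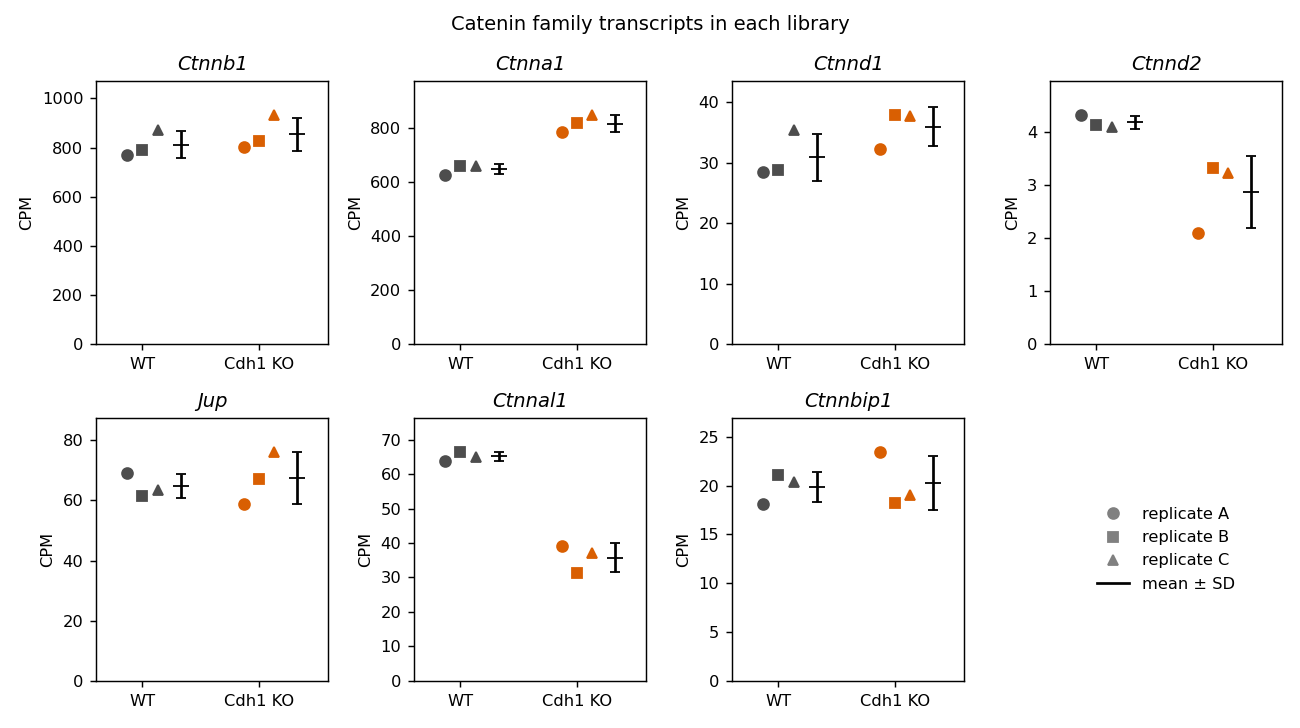
Level of each catenin transcript in each library in CPM (depth-scaled counts, vertical axis from 0), with WT in grey, the Cdh1 knockout in orange, 1 symbol per replicate letter, and bars for the mean ± SD of 3 libraries. The WT and knockout points are apart for Ctnna1, Ctnnal1 and Ctnnd2 and overlap for the other 4 genes.

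The first question was whether the transcript of beta-catenin itself differs between the libraries labelled Cdh1-/- and WT. Ctnnb1 (ENSMUSG00000006932.17, GRCm38 chromosome 9, 120933400 to 120960507, plus strand) was the most abundant catenin. In the order A, B, C, its level was 770, 791 and 873 CPM in WT and 802, 828 and 931 CPM in the knockout. Values of single libraries are given in this order throughout. The lowest knockout library lay between the WT libraries, so the groups overlapped. The log2 fold change of 0.07 had a standard error of 0.09 and a 95% interval from -0.11 to 0.26 (adjusted p 0.653, edgeR). The log2 fold change ranged from 0.01 (knockout replicate C left out) to 0.14 (WT replicate C left out). The miss of the threshold does not show equal levels, and the interval gives the range of changes these libraries allow.

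Plakoglobin can take the place of beta-catenin on the cadherin tail and also links desmosomal cadherins to the cytoskeleton. Jup (ENSMUSG00000001552.14, chromosome 11, 100370619 to 100397749, minus strand) was counted at 69.1, 61.5 and 63.6 CPM in WT and at 58.9, 67.1 and 76.1 CPM in the knockout. The knockout libraries held both the lowest and the highest value. The log2 fold change was 0.06 (standard error 0.11, 95% interval -0.17 to 0.28, adjusted p 0.789, edgeR), and it was -0.03 without knockout replicate C. The desmosome genes Dsg2, Dsc2 and Dsp were not called either, with log2 fold changes of 0.32 (adjusted p 0.111), 0.15 (0.600) and 0.06 (0.808, edgeR). Dsc3 was not tested. Pkp3, a desmosomal plakophilin, was called higher (log2 fold change 0.46, adjusted p 0.0313, edgeR).

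Alpha-catenin joins the cadherin complex to actin, and its transcript was the one catenin called higher. Ctnna1 (ENSMUSG00000037815.7, chromosome 18, 35118859 to 35254779, plus strand) was counted at 625, 659 and 660 CPM in WT and at 784, 819 and 847 CPM in the knockout. Every knockout library lay above every WT library, and the gap between the groups was wider than the spread within either. This was a log2 fold change of 0.33 (standard error 0.08, 95% interval 0.17 to 0.50, adjusted p 0.00948, edgeR). Without WT replicate A, the lowest of the WT libraries, the log2 fold change was 0.31 and the adjusted p was 0.0628. The other alpha-catenin genes were hardly counted. Ctnna2, the neural form, had 14, 16 and 9 counts in WT and 0, 3 and 2 in the knockout, and Ctnna3 had at most 2 counts in any library, so neither was tested.

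Ctnnal1 encodes alpha-catulin, a relative of alpha-catenin and vinculin. Ctnnal1 (ENSMUSG00000038816.14, chromosome 4, 56810935 to 56865188, minus strand) was counted at 63.9, 66.4 and 65.0 CPM in WT and at 39.1, 31.2 and 37.0 CPM in the knockout. The WT libraries lay close together, and every knockout library was below all of them. This was a log2 fold change of -0.86 (standard error 0.11, 95% interval -1.09 to -0.64, adjusted p 7.9e-05, edgeR). It was called in each of 17 alternative analyses, with log2 fold changes from -0.93 to -0.76. Alpha-catenin and alpha-catulin transcripts thus moved in opposite directions in the same libraries.

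The bases before the start of Ctnnal1, the catenin with the largest called change, are shown with those of Ctnnb1 so that the start regions of a gene that fell and of one that was not called can be read side by side. Each run covers 250 bases up to the base before the RefSeq start, 5′ to 3′ on the strand of the gene, from RefSeq on GRCm38.p6. Ctnnal1 is chr4:56865212-56865461 (minus strand) and Ctnnb1 is chr9:120933150-120933399 (plus strand). Capitals mark GC boxes, the letters GGGCGG or, on the other strand, CCGCCC.
Ctnnal1: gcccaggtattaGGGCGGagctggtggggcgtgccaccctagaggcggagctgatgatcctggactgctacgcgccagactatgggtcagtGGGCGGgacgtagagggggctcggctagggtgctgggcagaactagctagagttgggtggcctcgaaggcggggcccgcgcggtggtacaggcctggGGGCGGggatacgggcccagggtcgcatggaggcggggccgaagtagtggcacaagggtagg
Ctnnb1: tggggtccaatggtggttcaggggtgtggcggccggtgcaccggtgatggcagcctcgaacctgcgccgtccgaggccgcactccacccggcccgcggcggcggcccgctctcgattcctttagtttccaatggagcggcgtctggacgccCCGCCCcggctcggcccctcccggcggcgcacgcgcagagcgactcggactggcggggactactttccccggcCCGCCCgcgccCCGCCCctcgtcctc

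Both start regions were rich in G and C, with 68.4% in Ctnnal1 and 74.8% in Ctnnb1 against a median of 52.4% over 32851 RefSeq start regions of the same length. Each held 3 GC boxes, and 32.7% of all start regions held at least 1. The letters of the TCF and LEF motif (CTTTGAA or CTTTGAT, as well as CTTTGTA or CTTTGTT, on either strand) were found in neither, nor in the start regions of the other 4 members with an entry, and 14.8% of all start regions held one. A motif match is a description of letters, and its absence says only that these letters are not in this window.

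p120-catenin was the member most affected by overlapping annotation. Ctnnd1 (ENSMUSG00000034101.14, chromosome 2, 84600071 to 84650765, minus strand) shares 69.7% of its exon bases with Gm28635, an annotated gene on the same strand that runs across it, which leaves 1951 of 6433 exon bases to Ctnnd1 alone. Gm28635 had 0 counts in all 6 libraries. The same held across the table, since none of the 537 rows whose exons lie wholly within same-strand exons of other rows had a count. None of the 368 rows wholly within opposite-strand exons had one either, against 55.1% of the 45288 rows that share no exon base. By default the counting program named by the submitters leaves out a read that overlaps 2 genes. The handling of such reads and of strand is not given in the sources used here, and lengths below therefore count only unshared exon bases. A read that runs from unshared into shared bases may be left out as well, so levels of Ctnnd1 per kilobase may still be too low.

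Ctnnd1 stood at 28.5, 28.9 and 35.4 CPM in WT and at 32.2, 37.9 and 37.8 CPM in the knockout. The groups overlapped, because WT replicate C lay above knockout replicate A. The log2 fold change was 0.22 (standard error 0.12, 95% interval -0.04 to 0.48, adjusted p 0.278, edgeR). Its close relative Arvcf, which binds the same stretch of the cadherin tail, stood at 73.8 ± 8.54 CPM in WT against 58.5 ± 6.73 CPM in the knockout and missed the threshold (log2 fold change -0.33, 95% interval -0.58 to -0.09, adjusted p 0.0653, edgeR). Arvcf passed it in 5 of 17 alternative analyses.

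Delta-catenin is known chiefly from neurons. Ctnnd2 (ENSMUSG00000022240.10, chromosome 15, 30172593 to 31029341, plus strand) was the least counted member, with 96, 82 and 82 counts in the WT libraries and 38, 76 and 64 in the knockout. This was 4.32, 4.14 and 4.10 CPM in WT and 2.10, 3.32 and 3.23 CPM in the knockout. All knockout libraries lay below all WT libraries, and knockout replicate A was the lowest. The log2 fold change of -0.53 had a standard error of 0.27 and a 95% interval from -1.10 to 0.04, and it did not pass the test (adjusted p 0.222, edgeR). Without knockout replicate A it was -0.35 (adjusted p 0.439). The neural marker list was mixed, with 3 of 7 tested markers called lower (5.71% of all tested genes were) and 4 not called. The part of neural cells in the Ctnnd2 value was not tested.

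ICAT binds beta-catenin and blocks its contact with TCF factors. Ctnnbip1 (ENSMUSG00000028988.13, chromosome 4, 149518236 to 149566437, plus strand) was counted at 18.1, 21.1 and 20.4 CPM in WT and at 23.4, 18.3 and 19.1 CPM in the knockout. The groups overlapped, with knockout replicate A the highest of the 6. The log2 fold change was 0.03 (standard error 0.14, 95% interval -0.27 to 0.32, adjusted p 0.933, edgeR), and its sign changed in 4 of 17 alternative analyses. A share of 25.8% of its exon bases lies under Gm13066 of the opposite strand, and Gm13066 had at most 2 counts in any library.

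**Figure D2:**
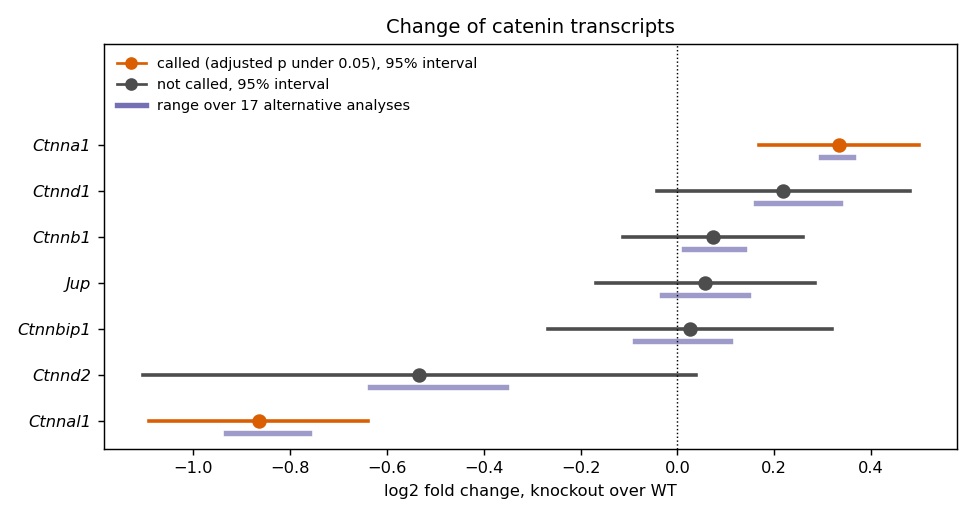
Log2 fold change of each catenin transcript, knockout over WT (horizontal axis), with its 95% interval, orange where the adjusted p is under 0.05, and a purple bar for the range over 17 alternative analyses. The intervals of Ctnna1 (0.17 to 0.50) and Ctnnal1 (-1.09 to -0.64) lie on one side of 0, and the other 5 include 0.

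Levels were compared between members only per length, as CPM per kilobase of exon that no other row shares. In WT, Ctnnb1 stood at 224 ± 15.03 and Ctnna1 at 174 ± 5.32 (SD, n = 3), and the lowest Ctnnb1 library lay above the highest Ctnna1 library. Jup followed at 20.1 ± 1.21, then Ctnnal1 at 16.96 ± 0.322, Ctnnd1 at 15.9 ± 1.99, Ctnnbip1 at 9.59 ± 0.741 and Ctnnd2 at 0.705 ± 0.020. Ctnnal1 and Ctnnd1 did not differ beyond their spread in WT, and the other neighbours in this order did. The place of Ctnnd1 is uncertain, since its level per kilobase may be too low. In level per length, Ctnnb1 ranked 203rd and Ctnna1 240th of 17325 tested genes over all 6 libraries, both within the top 1.39%.

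The order of the means was not the same in the knockout. There Ctnnb1 stood at 236 ± 18.8 and Ctnna1 at 219 ± 8.38 per kilobase, and their ranges overlapped, although Ctnnb1 was the higher in each library. Jup at 20.9 ± 2.68 and Ctnnd1 at 18.4 ± 1.66 overlapped as well. Ctnnal1, at 9.32 ± 1.07, lay below Ctnnd1 in every knockout library and overlapped with Ctnnbip1 at 9.78 ± 1.34. Ctnnd2 remained last at 0.485 ± 0.114.

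Ratios of length-scaled levels within a library do not depend on the scaling between libraries, apart from a prior count. This prior of 2 counts, scaled to library depth, was added to each gene, so ratios can differ slightly from those of the printed levels. In all, 7 ratios were compared by a two-sided exact permutation test. With 3 libraries against 3 the smallest p this test can give is 0.1, so none can pass 0.05, and after adjustment over the 7 ratios the smallest was 0.175. The ratio of Ctnna1 to Ctnnb1 was 0.789, 0.809 and 0.734 in WT and 0.949, 0.960 and 0.883 in the knockout. All knockout libraries were higher, by 0.26 on the log2 scale (exact p 0.1). The ratio of Ctnnal1 to Ctnna1 was 0.098 ± 0.0018 in WT and 0.043 ± 0.0057 in the knockout, a log2 difference of -1.20 with no overlap (exact p 0.1). Its direction and lack of overlap follow from the levels of these genes given above, so this ratio is no separate result. The ratio of Ctnnd2 to Ctnnd1 was 0.046 ± 0.0062 in WT and 0.027 ± 0.0040 in the knockout, a difference of -0.77 with no overlap (exact p 0.1), with Ctnnd1 scaled by its unshared bases.

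The 3 remaining ratios of single genes overlapped between the groups. Jup to Ctnnb1 was 0.090 ± 0.0098 in WT and 0.089 ± 0.0052 in the knockout (exact p 1), so plakoglobin made up 8.27 ± 0.819% of the 2 transcripts per length in WT and 8.14 ± 0.442% in the knockout. Ctnnd1 to Ctnnb1 had a log2 difference of 0.15 (exact p 0.2). Ctnnbip1 to Ctnnb1 had one of -0.05 (exact p 0.8), with knockout replicate A above all other libraries and B and C below them.

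The cadherin side of the complex was set beside the catenin side. Summed over 13 listed classical cadherins, the level per kilobase was 148, 149 and 140 in the WT libraries and 62.8, 60.4 and 56.0 in the knockout libraries. Cdh1 made up 86.5 ± 0.169% of this sum in WT and 65.3 ± 4.16% of it in the knockout. The summed level of Ctnnb1 and Jup, which share the binding site on the cadherin tail, was 244 ± 14.5 per kilobase in WT and 256 ± 21.4 in the knockout. Cadherin transcript per unit of these 2 catenins was 0.635, 0.627 and 0.539 in WT and 0.263, 0.243 and 0.200 in the knockout, a log2 difference of -1.36 (exact p 0.1). This is a ratio of RNA. Its cadherin sum includes the targeted gene Cdh1, at 126 ± 4.32 per kilobase in WT and 38.9 ± 2.04 in the knockout. The ratio therefore does not show a change of the cadherins apart from Cdh1. Whether the Cdh1 reads of the knockout come from a transcript that encodes E-cadherin was not tested, and no protein was measured.

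**Figure D3:**
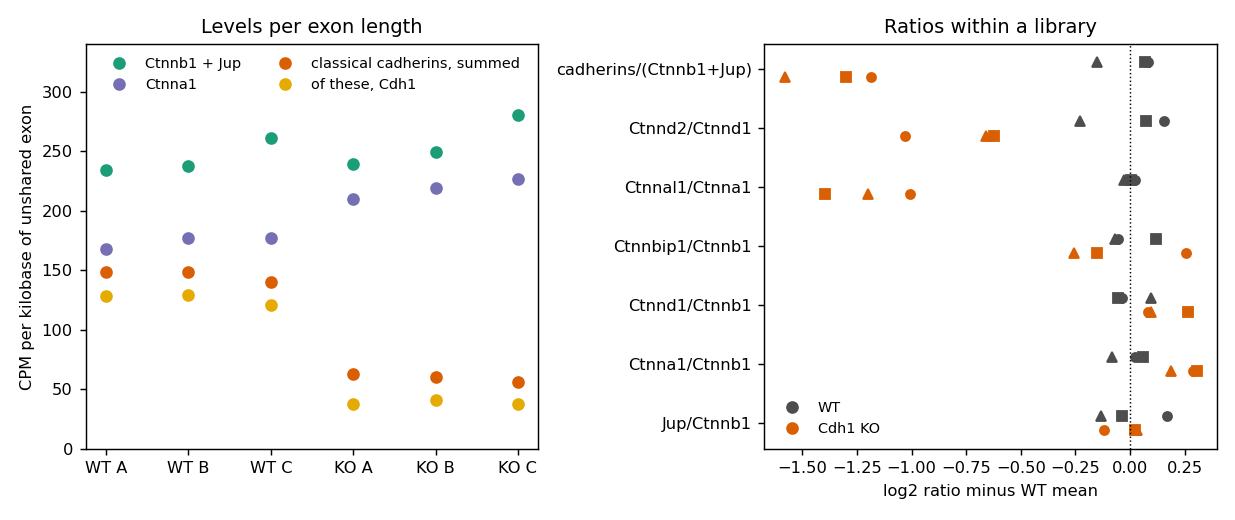
Left, levels per kilobase of unshared exon (CPM per kilobase) in each library for Ctnnb1 plus Jup, Ctnna1, the summed classical cadherins and Cdh1 alone. Right, log2 ratios of length-scaled levels within a library, each minus its WT mean, WT in grey and knockout in orange, with circles, squares and triangles for replicates A, B and C. The cadherin sum, which includes the targeted gene Cdh1, falls from 140 to 149 in WT to 56.0 to 62.8 in the knockout. Ctnnb1 plus Jup overlaps between the groups.

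Genes around the catenins were taken from 6 lists. Among 10 catenin relatives (other alpha-catenins, vinculin, plakophilins and armadillo repeat genes) 8 were tested, 1 rose and 0 fell (12.5%, against 13.3% of all tested genes), with a median log2 fold change of -0.02. Pkp3, a desmosomal plakophilin, was counted at 16.7, 16.8 and 20.5 CPM in WT and at 27.1, 23.2 and 24.1 CPM in the knockout, a rise of 0.46 on the log2 scale (adjusted p 0.0313, edgeR). It lost its call without WT replicate A (adjusted p 0.143), WT replicate B (0.125), knockout replicate A (0.064) and knockout replicate C (0.0656). Vcl, the gene of vinculin, which binds alpha-catenin under tension, stood at 85.3 ± 3.08 CPM in WT against 102 ± 7.48 CPM in the knockout and was not called (adjusted p 0.0742, edgeR). It lies on chromosome 14, where the median of all tested genes was 0.53, and 39.7% of its exon bases lie under a gene of the opposite strand.

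The cadherin list held both rises and falls. Of 17 listed classical cadherins and desmosome genes 14 were tested, 2 rose and 3 fell (35.7%, against 13.3% of all tested genes), with a median of -0.20. The 5 include Cdh1 itself, the targeted gene, and Cdh10, which was tested only because of its WT libraries. Besides Cdh1, Cdh2 (N-cadherin) fell from 7.95 ± 0.450 CPM to 3.19 ± 0.706 CPM. Cdh4 (R-cadherin) rose from 4.83 ± 0.608 CPM to 9.19 ± 1.39 CPM, and Cdh24 on chromosome 14 rose by 0.91 on the log2 scale (adjusted p 0.00175, edgeR). Cdh10 fell by 2.11 on the log2 scale (adjusted p 0.0326, edgeR). It had 36, 26 and 10 counts in WT and 2, 6 and 8 in the knockout. Knockout replicates A and B were at levels read here as not distinct from 0. Cdh10 had enough counts for the test in WT only, so this call is no firm sign of a fall. Its call was lost without WT replicate A (adjusted p 0.185), WT replicate B (0.132), knockout replicate A (0.0755), knockout replicate B (0.116) or knockout replicate C (0.0557). It was also lost with limma-voom (0.0599) and with the replicate block (0.0515), and Cdh10 was not among the genes tested with halved counts or a minimum count of 50. Cdh3 (P-cadherin) followed Cdh1 in level per kilobase in WT, at 11.6 ± 0.682 against 10.7 ± 2.31 in the knockout, and was not called (log2 fold change -0.12, 95% interval -0.40 to 0.17).

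On the actin side of the junction all 20 listed genes were tested, 2 rose and 2 fell (20%, against 13.3% of all tested genes), with a median of -0.02. Lima1 (EPLIN), which links alpha-catenin to actin filaments, was counted at 196, 182 and 167 CPM in WT and at 131, 111 and 120 CPM in the knockout. It fell by 0.59 on the log2 scale (standard error 0.09, adjusted p 0.000631, edgeR), with no overlap. Nectin1, a junction protein tied to actin through afadin, rose from 44.3 ± 1.63 CPM to 75.2 ± 15.6 CPM (adjusted p 0.00115). Ajuba, a LIM protein that binds alpha-catenin and is encoded on chromosome 14, went from 158 ± 28.6 CPM to 267 ± 49.3 CPM, a rise of 0.76 on the log2 scale (adjusted p 0.00205). Afdn, the gene of afadin, and Actn1 and Actn4, the alpha-actinins, were not called.

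Among 20 partners of p120-catenin and enzymes that act on the complex, all tested, 1 rose and 1 fell (10%, against 13.3% of all tested genes), with a median of 0.11. Yes1, a Src family kinase, was counted at 125, 129 and 133 CPM in WT and at 73.5, 84.3 and 100.1 CPM in the knockout, and it fell by 0.58 on the log2 scale (adjusted p 0.00186, edgeR). Its relatives Src and Fyn had log2 fold changes of 0.26 (adjusted p 0.113) and -0.05 (adjusted p 0.808). Ptprm, a receptor phosphatase that binds cadherin complexes, rose from 1.95 ± 0.368 CPM to 5.11 ± 1.70 CPM (adjusted p 0.00828), a call lost without WT replicate B (adjusted p 0.0539) or knockout replicate C (0.0558). The list held 4 called genes without knockout replicate A. Rhoa, Rac1 and Cdc42, the GTPases that p120-catenin acts on, had log2 fold changes of 0.20, 0.15 and 0.24 and were not called.

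Of 17 genes that control the turnover of beta-catenin protein, all tested, 1 rose and 0 fell (5.88%, against 13.3% of all tested genes), with a median of 0.00. Usp9x, a deubiquitinase reported to act on several junction proteins, was counted at 755, 824 and 709 CPM in WT and at 1365, 1580 and 1627 CPM in the knockout. The rise to 199.8% of the WT level (adjusted p 7.6e-06, edgeR) was called in each of 17 alternative analyses. Its Y-linked copy Usp9y had at most 11 counts in any library, and the median of all tested genes of the X chromosome was 0.02. The scaffold and kinase genes of the destruction complex, Apc, Axin1, Gsk3a, Gsk3b and Csnk1a1, had log2 fold changes between -0.12 and 0.11 and were not called. Axin2, itself a target of beta-catenin, was not called either (log2 fold change -0.33, 95% interval -0.76 to 0.11, adjusted p 0.336). Knockout replicate A was the lowest library of Axin2, at 7.41 CPM against 12.9 and 13.3 CPM in replicates B and C, and without it the log2 fold change was -0.10.

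Among 20 nuclear partners of beta-catenin, all tested, 2 rose and 2 fell (20%, against 13.3% of all tested genes), with a median of 0.00. Tested without chromosomes 1, 14 and Y the list held 1 called gene, Lef1. Lef1, a partner through which beta-catenin reaches DNA, fell from 12.4 ± 1.71 CPM to 1.14 ± 0.378 CPM (adjusted p 2.4e-06, edgeR), with 34.5% of its exon bases under a gene of the opposite strand. The other TCF genes, whose products ICAT keeps from beta-catenin, did not pass the threshold, at log2 fold changes of -0.20 for Tcf7 (adjusted p 0.313), 0.32 for Tcf7l1 (0.0935) and -0.01 for Tcf7l2 (0.978). Tcf7l1 passed it with no filter on low counts (adjusted p 0.0266, edgeR) and was at 0.19 without WT replicate B. Sox17, which can bind beta-catenin and is also an endoderm marker, rose from 1.96 ± 0.767 CPM to 8.67 ± 2.11 CPM. Chd8, a chromatin remodeller that inhibits beta-catenin, rose by 0.45 (adjusted p 0.00221), close to the median of 0.53 of its chromosome 14. Cdc73, a coactivator subunit on chromosome 1, where the median was -0.33, fell by 0.35 (adjusted p 0.0250) and lost its call without WT replicate B (0.099), WT replicate C (0.105), knockout replicate A (0.0578) or knockout replicate B (0.0632).

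**Figure D4:**
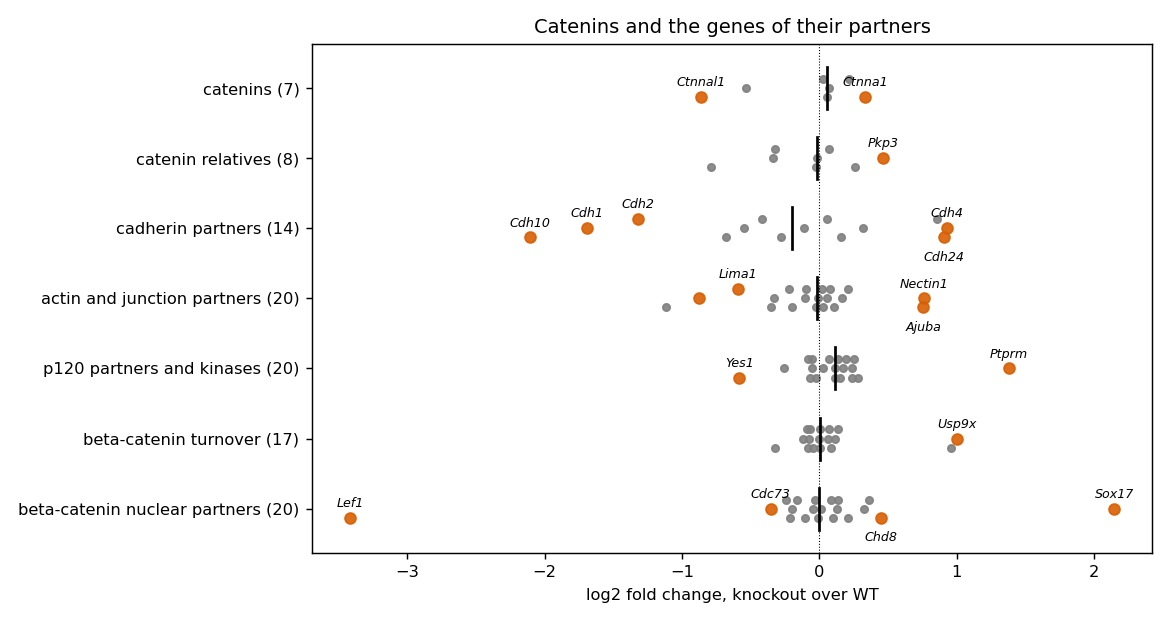
Log2 fold change, knockout over WT, of each tested gene in the catenin family and in 6 lists of partner genes, with the number tested in brackets, called genes in orange (all but 1 named), other genes in grey and the median of each list as a black bar. List medians lie between -0.20 and 0.11, and single genes such as Lef1, Cdh1, Sox17 and Usp9x lie far from them.

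The position of the members was compared with their changes. None lies on chromosomes 1 or 14, whose medians stood apart, or on the Y chromosome, where the 6 tested genes had a median of -2.56, and the medians of their own chromosomes were between -0.01 and 0.03. Within 1 Mb of Ctnnal1, 8 other genes were tested, 0 were called, and their median log2 fold change was -0.05. Within 1 Mb of Ctnna1, 39 other genes were tested with a median of 0.04, and 1 was called, Nrg2, with a log2 fold change of 1.09. The part of position in the changes of Ctnnal1 and Ctnna1 was not tested.

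Genes whose levels ran most like a member were ranked by Pearson's correlation of log2 CPM over the 6 libraries among 9777 genes with a mean of at least 10 CPM. For Ctnnb1 these were Gm15459 (r = 0.994), Rab21 (0.993) and Krit1 (0.992), none of them called. For Ctnna1 they were Aaas, Kif13b and Top2b (r = 0.997, 0.997 and 0.997), all called higher, with log2 fold changes of 0.27, 0.66 and 0.71. Kif13b and Top2b lie on chromosome 14. For Ctnnal1 they were Atp8a1 (r = 0.999, log2 fold change -0.96), Ythdc2 (0.998, -0.27, not called) and Rian (0.997, -8.18). With 6 libraries in 2 groups, genes that differ between the genotypes in the same direction have high correlations with one another. Ctnnb1 and the genes most like it were not called, and all genes given here were picked as the highest of 9777. These values therefore describe the libraries only.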

How the data were processed

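Per gene, raw counts for 6 libraries stood in 1 table deposited by the authors. Per the submitters' processing notes, cutadapt 2.10, STAR 2.7.5b, featureCounts 2.0.1 and GRCm38 were used, and a directional kit made the libraries, per the labels' protocols. Identifiers of 54349 of 55401 genes matched GENCODE M21, and 54331 had the exons of its basic set. The counts had an excess of even values below 11 (78.1% to 83.1%), as would arise if both reads of a pair were counted. The sources used here do not state this, and the counts printed may then exceed the number of fragments, so levels up to 6 counts (0.262 to 0.332 CPM) were read as not distinct from 0, for counting error only.

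Counts were tested in R 4.3.3 with edgeR 4.0.16 (filterByExpr with a minimum count of 10, TMM, glmQLFit, glmQLFTest, genotype as the only term) over all 17325 genes kept. Intervals are at 95%. On data simulated for this comparison with 17325 genes, 93% of 2-fold and 100% of 4-fold changes were recovered, and 5 of 198 calls were false. The 200 changed genes were drawn from those with a mean count of at least 50. Smaller changes, such as that of Ctnna1, and genes with fewer counts were not covered by these shares. Alternatives used other scalings and filters, DESeq2 1.42.0, limma 3.58.1 (voom), a replicate block, halved counts, fewer chromosomes, and fewer libraries. The text names every member, up to 5 called genes of each list by size of change, and the 3 genes most like Ctnnb1 and each called member. It also names Cdh1, Cdh2, Cdh3, Vcl, Arvcf, Axin2, Tcf7l1, Tcf7l2, Pou5f1, Sox2 and Esrrb. Other genes, such as Dsg2, Rhoa, Src, Apc and Nrg2, were named after their values were seen. Of the called actin and junction partners, 1 is not reported here by name. The members and lists were chosen with earlier results of these data known.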

Additional observations from a re-analysis of the deposited data

How the results depend on the processing

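The number of called catenins was 2 in 16 of 17 alternatives and 1 without WT replicate A, so it ran from 1 to 2 when single libraries were dropped. Ctnnal1 kept its call in all 17. The sign of Ctnnbip1 turned with upper quartile scaling (-0.0087) and with library totals (-0.0063), and it ran from -0.0886 to 0.1086 without single libraries. Without single libraries Jup ran from -0.0313 to 0.1457, Cdh3 from -0.2993 to 0.0071 and Tcf7l2 from -0.1622 to 0.1161, and Tcf7l2 was 0.0149 with no filter. The replicate letters were not taken as pairs, since same-letter deviations correlated at 0.145, -0.026 and 0.233 and not every library correlated best with its own letter. Replicate A was nonetheless the highest of both genotypes for Col3a1 (114, 12 and 20 counts in WT, 42, 2 and 2 in the knockout) and for Col1a2. With the replicate block 2 catenins were called, and 2686 of all tested genes in place of 2307.

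Catenin relatives had 2 called genes with upper quartile scaling, no filter, a minimum count of 50 or the replicate block, 0 at an adjusted p under 0.01 (edgeR; 3 at an unadjusted p under 0.05), and 0 to 3 without single libraries. Actin and junction partners had 7 with upper quartile scaling and 7 with library totals. Nuclear partners had 1 without chromosomes 1, 14 and Y, where 3 of the 4 called genes lie. Partners of p120-catenin had 1 to 4 without single libraries, with 1 without WT replicate B or knockout replicate C and 4 without knockout replicate A. All tested genes gave 1242 calls at 0.01, 1535 without chromosomes 1, 14 and Y, and 1374 (without WT replicate A) to 2784 (without knockout replicate A) without single libraries. The log2 difference of Jup to Ctnnb1 ran from -0.087 to 0.0631 and that of Ctnnbip1 to Ctnnb1 from -0.20 to 0.0526. The cause was not tested. Ctnnd2, Cdh10 and the untested Ctnna2 had low counts, and the part of depth in their values was not tested.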
